A study of Xenopus laevis with 6 samples.

Results

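Chromosomes 9_10L and 9_10S of the frog Xenopus laevis are a homeologous pair, each formed by the fusion of the ancestral chromosomes 9 and 10. The regions described here are all distinct accessible intervals that the authors listed on these chromosomes by ATAC-seq, an assay in which the transposase Tn5 cuts open chromatin. They number 9467 of 105985 intervals in the stage 10 and stage 12 lists together, with 3962 of 44936 at stage 10 and 5505 of 61049 at stage 12. The tissue was the animal cap, the ectoderm at the pole of the embryo, explanted at stage 9 into a salt medium and grown to stage 10, when gastrulation starts, or to stage 12, late in gastrulation. Each stage had 3 libraries of 2 explants, read as paired ends of 100 nucleotides. No treatment other than explantation and culture is given, nor a strain or an age beyond the stage. Stage is the only item given that differs between the groups. All explants were cut at stage 9, so time in culture goes with stage and cannot be told apart from it. The labels name 1 list for all libraries of a stage, so no value belongs to a single library. No difference between the stages has a replicate check.

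As background, X. laevis is an allotetraploid whose genome joins those of a pair of extinct diploid frogs. The subgenomes are called L and S because the L chromosomes are longer, and the S chromosomes have lost more sequence and more genes since the genomes were joined. Related diploid Xenopus species keep 9 and 10 as separate chromosomes. Accessible regions in an embryo commonly hold promoters and enhancers, and cap cells are undecided progenitors that turn toward epidermis and neural tissue during gastrulation. Positions are on build xenLae2, the build named in the submitters' processing notes, and are 1-based. No sequence or gene of that build was used, so regions are given by position.

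Chromosome 9_10L carried more accessible regions per length than 9_10S at both stages. At stage 10 there were 2236 regions on the 118 Mb span of 9_10L and 1726 on the 104 Mb span of 9_10S, which is 19.0 and 16.5 regions per Mb. At stage 12 there were 3152 and 2353 regions, or 26.8 and 22.5 per Mb. The L to S density ratio was 1.15 at stage 10 (95% exact interval 1.08 to 1.23) and 1.19 at stage 12 (1.13 to 1.25). Intervals here and below cover counting error only. They treat regions as independent, which regions lying in clusters are not, and they say nothing of differences between embryos. Regions covered 1.07% of 9_10L and 0.955% of 9_10S at stage 10, and 1.69% and 1.44% at stage 12. Among the 9 chromosomes of its kind, 9_10L was the 3rd densest and 9_10S the 2nd densest at each stage. The other 8 L chromosomes ran from 14.4 to 21.96 regions per Mb at stage 10, and the other 8 S chromosomes from 13.0 to 16.7. Their medians were 16.1 on L and 14.4 on S at stage 10, and 22.3 and 19.4 at stage 12. A higher density on L is thus not shown to be particular to this pair.

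**Figure D1:**
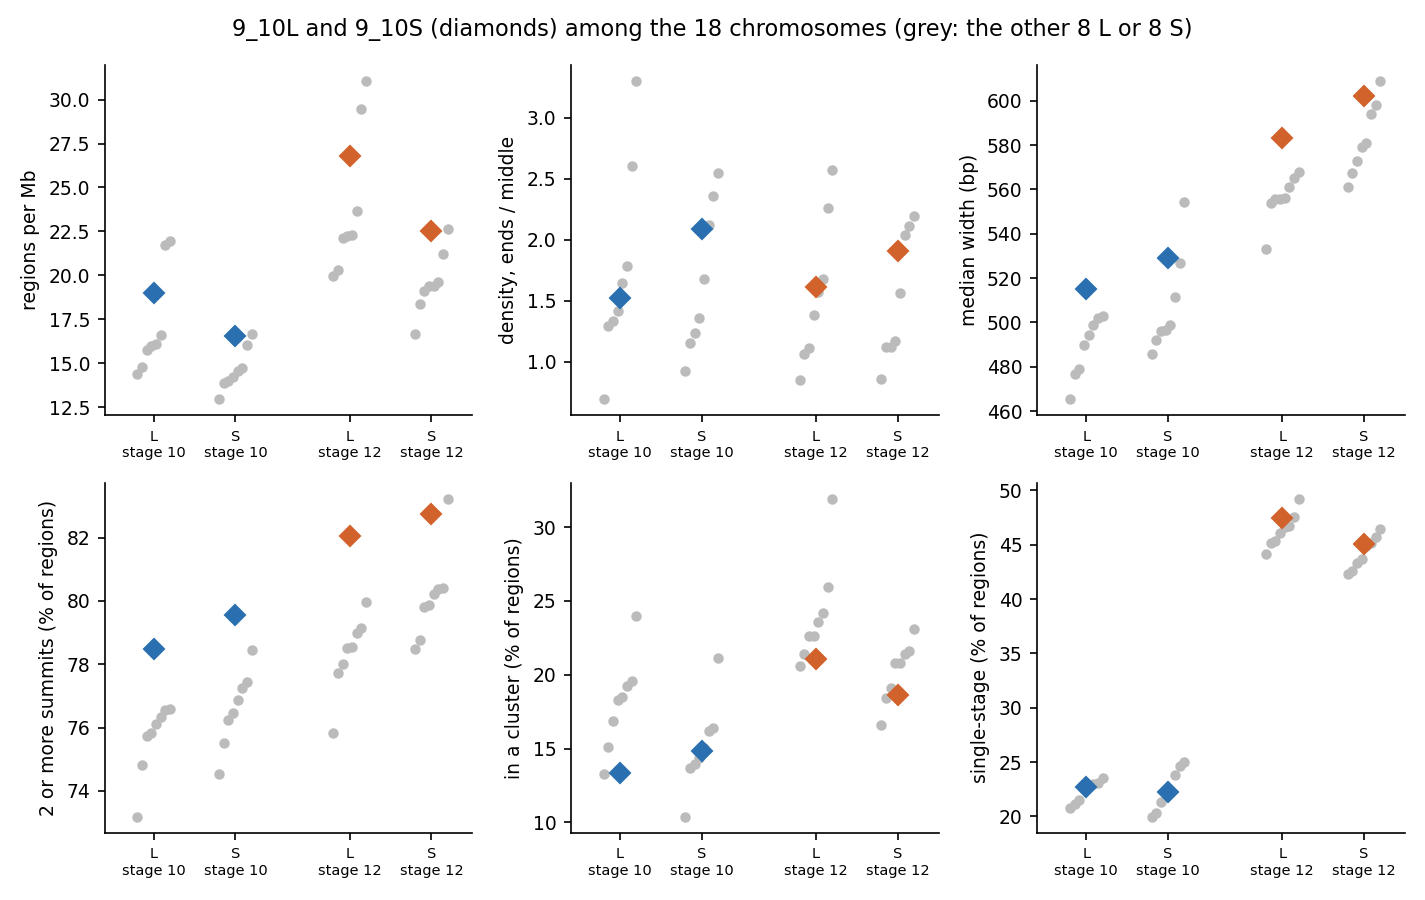
Each panel gives 1 measure for the 18 chromosomes, by stage and by L or S, with 9_10L and 9_10S as diamonds and the other chromosomes as grey points. The axes do not start at 0. The pair stood high in density, in median width and in the share of regions with 2 or more summits. In single-stage share 9_10L and 9_10S ranked 8th and 10th of 18 at stage 10, and 3rd and 12th at stage 12.

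The L to S density ratio had an interval above 1 along the middle of the chromosome and one that includes 1 at the ends. In the outermost 5 Mb at both ends, 9_10L held 277 regions and 9_10S held 313 at stage 10, a density ratio of 0.885 (0.750 to 1.04). At stage 12 the ends held 411 and 395 regions, a ratio of 1.04 (0.904 to 1.20). Between the ends, the density was 18.2 regions per Mb on 9_10L and 15.0 on 9_10S at stage 10, a ratio of 1.22 (1.13 to 1.30). By stage 12 it was 25.5 and 20.8 per Mb, a ratio of 1.23 (1.16 to 1.30). The intervals of the ends and the middle do not overlap at stage 10. They do at stage 12. Overlap of intervals does not decide whether the ratios of ends and middle differ. No interval for that contrast is given here.

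With both ends pooled, each chromosome was denser at its ends than in the middle. The ends of 9_10L held 27.7 regions per Mb at stage 10 and 41.1 at stage 12, which is 1.52 (1.34 to 1.73) and 1.61 (1.45 to 1.79) times the middle. The ends of 9_10S held 31.3 and 39.5 per Mb, or 2.09 (1.84 to 2.36) and 1.90 (1.70 to 2.12) times the middle. The ratio was higher on 9_10S at both stages, with intervals that do not overlap at stage 10 and do at stage 12. When the ends were taken as 10 Mb each, these ratios fell to 1.64 at stage 10 and 1.54 at stage 12 on 9_10S, and to 1.35 and 1.44 on 9_10L. The stage 10 intervals then overlapped, at 1.22 to 1.49 on 9_10L and 1.48 to 1.83 on 9_10S. Overlap, here or at stage 12, does not decide whether the homeologs differ in this ratio. No interval for that contrast is given here. With ends of 10% of the span the ratios were 1.38 and 1.61 at stage 10, and 1.48 and 1.52 at stage 12, on 9_10L and 9_10S. Ends were not denser on every chromosome: the ratio was 0.694 on chromosome 1L and 3.30 on 6L at stage 10. On 9_10L and 9_10S it ranked 10th and 6th of 18 at that stage.

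The end nearest the first base was the richer one. On 9_10L most of the pooled excess of the ends over the middle lay there, at both stages. At stage 10 the last 5 Mb of 9_10L was close in density to the middle. On 9_10L the first 5 Mb held 181 regions and the last 5 Mb held 96 at stage 10, a ratio of 1.89 (1.46 to 2.44). By stage 12 they held 267 and 144, a ratio of 1.85 (1.51 to 2.29). On 9_10S the first and last 5 Mb held 187 and 126 regions at stage 10, a ratio of 1.48 (1.18 to 1.88), and 239 and 156 at stage 12, a ratio of 1.53 (1.25 to 1.89). The last 2.59 Mb of 9_10L, a partial bin, held only 12 regions at stage 10 and 27 at stage 12. The 2 bins before it held 27.0 and 31.2 regions per Mb at stage 10.

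In bins of 5 Mb the number of regions varied 3.74 to 4.64-fold along a chromosome, from the sparsest to the densest full bin. The densest full bin was the first on both chromosomes and at both stages. At stage 10 it held 36.2 regions per Mb on 9_10L and 37.4 on 9_10S, the 9th and 7th densest of 491 full bins on all chromosomes. At stage 12 it held 53.4 and 47.8 per Mb, ranking 6th and 11th. The sparsest full bin of 9_10L was 25 to 30 Mb at both stages, with 39 regions at stage 10 and 68 at stage 12. On 9_10S it was 20 to 25 Mb at stage 10, with 50 regions, and 50 to 55 Mb at stage 12, with 60. A second peak away from the ends lay at 35 to 45 Mb on 9_10L, where the bins held 126 and 141 regions at stage 10 and 166 and 190 at stage 12. On 9_10S the bins from 30 to 40 Mb held 91 and 94 regions at stage 10, and 130 and 146 at stage 12. The bin from 60 to 65 Mb held more at stage 10, with 102. The bin from 15 to 20 Mb was higher still at stage 12, with 157 regions, and held 87 at stage 10.

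**Figure D2:**
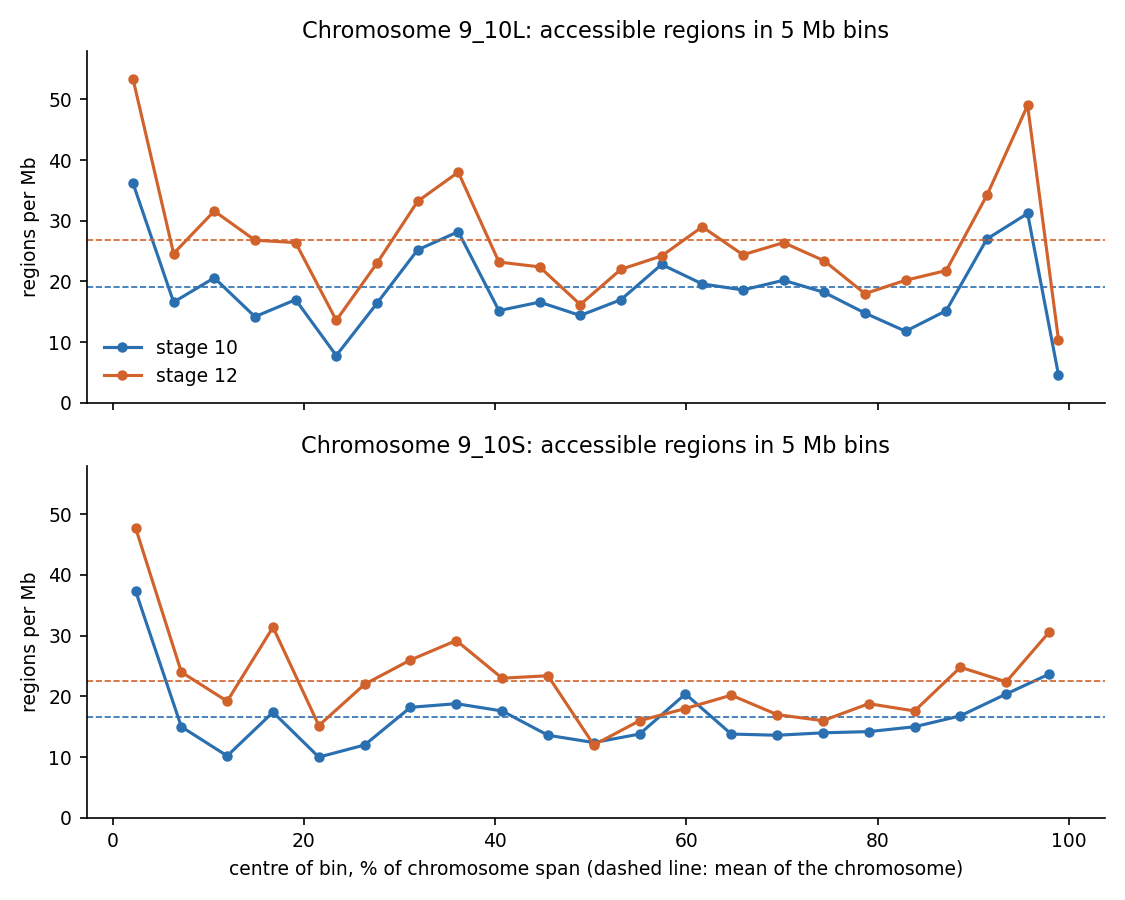
Accessible regions per Mb in 5 Mb bins along 9_10L (upper panel) and 9_10S (lower panel), against the position of the bin centre as a percent of the span, at stage 10 (blue) and stage 12 (orange). Dashed lines are the means of the chromosome, and the last bin of each is shorter than 5 Mb. Both chromosomes have their highest value in the first bin and several lower peaks along the span.

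The profiles of the homeologs were compared by relative position. When each chromosome was divided into 20 parts of equal length, the numbers of regions on 9_10L and 9_10S had a Pearson correlation of 0.71 at stage 10 and 0.80 at stage 12 (Spearman 0.47 and 0.58, over 20 parts). Without the outermost part at each end the Pearson values were 0.53 and 0.58 over 18 parts, and the Spearman values 0.32 and 0.44. These are descriptions, since the parts share libraries and base composition and the matching of position between homeologs was not checked. 9_10L was denser in 14 of the 20 parts at stage 10 and in 17 at stage 12. The L to S ratio of a part ran from 0.702 to 1.81 at stage 10, with the highest value between 45% and 50% of the span. At stage 12 it ran from 0.760 to 2.07, with the highest value between 65% and 70%.

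The number of listed regions was higher at stage 12 by 1.41 times on 9_10L (1.34 to 1.49) and by 1.36 times on 9_10S (1.28 to 1.45). The lists differ in local read background, solved from the authors' folds and p-values. Its most common value, called the floor, was 2.204 reads at stage 10 and 4.70 at stage 12. Sequencing depth itself was not measured. With both lists held to one number of regions over all chromosomes, the ratios were 1.05 and 1.00. The excess of stage 12 on these chromosomes is thus close to that of the whole list, and what follows concerns where along the chromosomes it lay.

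On 9_10S the gain was mostly before the midpoint of the chromosome. The part before it held 868 regions at stage 10 and 1319 at stage 12, which is 1.52 times as many (1.39 to 1.66). The part after it held 858 and 1034, or 1.21 times as many (1.10 to 1.32). The ratio between these parts was 1.26 (1.11 to 1.43), the furthest from 1 of the 18 chromosomes. The next was chromosome 3L at 1.16, and 9_10L, at 1.07 (0.956 to 1.19), ranked 10th. Divided by that of 9_10L, the ratio of 9_10S was 1.18 (1.004 to 1.40). This contrast was 1.11 (0.931 to 1.33) with equal numbers of regions and 1.03 (0.811 to 1.31) in the upper 50% by −log10 p, so a difference between the homeologs was not shown under either. The ratio of 9_10L itself was then 1.10 (0.977 to 1.23) and 1.14 (0.978 to 1.33). In 4 equal sections of 9_10S, the stage ratio was 1.55, 1.49, 1.12 and 1.28. With equal numbers of regions the ratio between the parts of 9_10S was 1.22 (1.07 to 1.39). Among the upper 50% by −log10 p it was 1.18, with an interval that includes 1 (0.982 to 1.41). The split at the midpoint was chosen after the profile had been seen.

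The parts of 9_10S held nearly equal numbers at stage 10, at 16.6 and 16.4 regions per Mb, and parted at stage 12, at 25.3 and 19.8. In 18 of its 20 full bins stage 12 had more regions. The exceptions were 60 to 65 Mb, with 102 regions at stage 10 and 90 at stage 12, and 50 to 55 Mb, with 62 and 60. The highest bin ratio was 1.88, at 10 to 15 Mb, where 51 regions became 96. On 9_10L stage 12 had more regions in 23 of 23 full bins. This was not particular to 9_10L: it held in 43 of 43 full bins of chromosome 1L and 28 of 28 of 3L. On 6S it held in 22 of 25. The bin ratio of 9_10L ran from 1.06 at 65 to 70 Mb (114 and 121 regions) to 1.89 at 15 to 20 Mb (71 and 134 regions). Local background moved with the parts of 9_10S: its median was 2.63 times the floor before the midpoint and 3.15 after it at stage 10, and 2.66 and 2.98 at stage 12. Its part in the result was not tested.

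**Figure D3:**
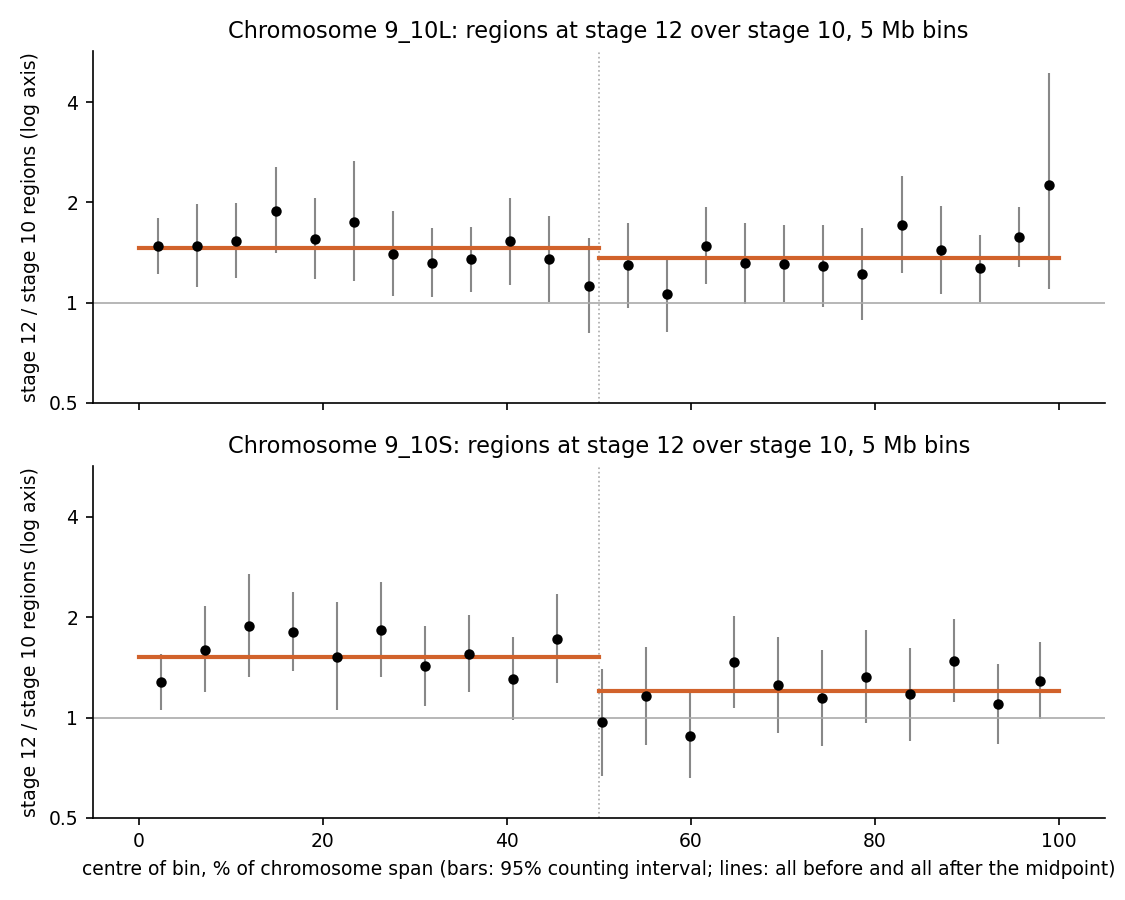
Number of regions at stage 12 divided by the number at stage 10 in 5 Mb bins of 9_10L (upper panel) and 9_10S (lower panel), on a log axis, against the position of the bin as a percent of the span. Bars are 95% exact counting intervals, and orange lines are the ratios of all regions before and after the midpoint. On 9_10S the line drops from 1.52 to 1.21 at the middle, and on 9_10L from 1.45 to 1.36.

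A region was called single-stage when no base of it was in the other list. At stage 10, 508 regions of 9_10L (22.7%, 95% Wilson interval 21.0% to 24.5%) and 384 of 9_10S (22.2%, 20.3% to 24.3%) were single-stage, against 22.3% of the regions on all 18 chromosomes. At stage 12 there were 1496 on 9_10L (47.5%, 45.7% to 49.2%) and 1061 on 9_10S (45.1%, 43.1% to 47.1%), against 45.6% on all chromosomes. These shares lie near those of all chromosomes. They depend on the lengths of the lists. With equal numbers of regions from each list, the shares on 9_10L and 9_10S were 29.4% and 28.6% at stage 10. At stage 12 they were then 35.7% and 31.7%. In the full lists, the share on 9_10L minus that on 9_10S was 0.471 percentage points at stage 10 (-2.16 to 3.08) and 2.37 at stage 12 (-0.293 to 5.03). Both intervals include 0, which does not show that the shares are equal. At stage 12 the interval excluded 0 under 3 other rules: the difference was 3.97 (1.03 to 6.89) with equal numbers of regions, 3.16 (0.491 to 5.82) with 50% of both regions required to overlap, and 2.94 (0.328 to 5.54) when nothing within 1 kb was allowed. The other L chromosomes together had 46.3% at stage 12, and the other S chromosomes 44.3%. From these, 9_10L differed by 1.17 points (-0.662 to 3.00) and 9_10S by 0.812 (-1.30 to 2.94). A higher share on L is thus not shown to be particular to this pair.

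Along 9_10S the single-stage shares of the 2 stages went in opposite directions. Before the midpoint, 19.2% of stage 10 regions (16.8% to 22.0%) and 47.8% of stage 12 regions (45.1% to 50.5%) were single-stage. After it the shares were 25.3% (22.5% to 28.3%) and 41.7% (38.7% to 44.7%). The part of 9_10S before the midpoint thus lost a smaller share of its stage 10 regions from the list and had a larger share listed at stage 12 alone. These shares are not independent of the stage ratios of the same parts. They use the same split, chosen after the profile had been seen, and are given for the full lists only. On 9_10L the same parts had 21.5% and 24.0% at stage 10, and 47.6% and 47.3% at stage 12, with intervals that overlap at each stage. The lowest stage 12 share in a full bin was 24.4% (16.7% to 34.3%), at 60 to 65 Mb of 9_10S, and the highest was 60.4% (50.7% to 69.4%), at 95 to 100 Mb of 9_10L.

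Single-stage regions of the pair were narrower, had fewer summits and had lower −log10 p than shared ones. At stage 10 their median width was 322 bp on 9_10L and 333 bp on 9_10S, against 580 and 603 bp for shared regions. Stage 12 medians were 455 and 451 bp, against 740 and 733 bp. Median −log10 p was 26.4 on 9_10L and 26.9 on 9_10S at stage 10, against 43.0 and 42.9 for shared regions. At stage 12 it was 55.7 and 53.6, against 151 and 154. Of regions with 1 summit, 44.7% on 9_10L and 46.2% on 9_10S were single-stage at stage 10, and of those with 6 or more, 1.86% and 4.00%. For stage 12 these shares were 68.02% and 68.2% for 1 summit, and 7.39% and 6.32% for 6 or more. A wide region meets the rule of 1 shared base more readily than a narrow one, and the part of width was not tested. No such values of width, summit number or −log10 p over all chromosomes are given here. Single-stage regions lay a median of 5.72 kb from the other list on 9_10L and 5.88 kb on 9_10S at stage 10, and of 12.2 and 10.8 kb at stage 12. Within 1 kb of it lay 122 of the 508 at stage 10 on 9_10L and 96 of the 384 on 9_10S. At stage 12 these numbers were 199 of 1496 and 162 of 1061. The stage 10 list is the sparser one, so distances to it and to the stage 12 list are not alike. No such distances over all chromosomes are given here.

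Among shared regions, most matched a single region. There were 1518 such matched regions on 9_10L and 1186 on 9_10S. Of these, 72.7% on 9_10L (70.4% to 74.8%) and 69.2% on 9_10S (66.5% to 71.8%) were wider at stage 12. The median stage 12 to stage 10 width ratio was 1.06 on 9_10L and 1.04 on 9_10S. The middle 50% of ratios ran from 0.997 to 1.33 on 9_10L and from 0.992 to 1.29 on 9_10S. Median width of matched regions was 603 bp at stage 10 and 725 bp at stage 12 on 9_10L, and 623 and 725.5 bp on 9_10S. No share over all chromosomes is given here, so the change is not shown to be particular to the pair. The stage 12 list has the higher read background, and its part in the widths was not tested. The best summit, meaning that of highest −log10 p, lay within 50 bp of its position in the other list in 76.4% and 74.8% of matched regions. The number of summits was the same in 42.1% and 43.3%, higher at stage 12 in 35.9% and 34.1%, and lower in 22.0% and 22.7%. On 9_10L, 94 stage 12 regions each covered 2 or more stage 10 regions, and 22 stage 10 regions were split at stage 12. On 9_10S these numbers were 67 and 20.

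Widths on the homeologs differed little from each other. The median was 515 bp on 9_10L (order-statistic interval 493 to 531 bp) and 529 bp on 9_10S (509 to 550 bp) at stage 10. Stage 12 medians were 583 bp (567 to 601 bp) and 602 bp (581 to 618 bp). The L to S ratio of the medians was 0.974 and 0.968. The middle 50% of widths ran from 308 to 771 bp on 9_10L and from 314 to 777 bp on 9_10S at stage 10.

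Both chromosomes had few narrow regions. At stage 10, 17.1% of regions on 9_10L (15.6% to 18.7%) and 15.6% on 9_10S (14.0% to 17.4%) were under 250 bp wide, against 19.0% on all chromosomes. By stage 12 the shares were 12.8% (11.6% to 14.0%) and 10.8% (9.64% to 12.2%), against 14.5%. At both stages this share was the lowest of the 9 L chromosomes on 9_10L and the lowest of all 18 on 9_10S. Chromosome 8S was below 9_10L at both stages, at 15.9% at stage 10 and 12.4% at stage 12. The difference from the other 8 chromosomes of the same kind was -2.44 points on 9_10L (-4.04 to -0.736) and -3.16 on 9_10S (-4.92 to -1.27) at stage 10. The stage 12 differences were -2.56 (-3.75 to -1.28) and -3.07 (-4.35 to -1.66).

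Wide regions were not more frequent on the pair. Regions of 1000 bp or more made up 10.5% on 9_10L and 10.1% on 9_10S at stage 10, against 11.7% on all chromosomes. On 9_10S the difference from the other S chromosomes was -2.42 points (-3.86 to -0.818). At stage 12 the shares were 13.7% and 14.6%, against 14.8%. Here the differences from the other chromosomes of their kind, -0.559 (-1.78 to 0.746) and -1.27 (-2.74 to 0.293), had intervals that include 0.

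**Figure D4:**
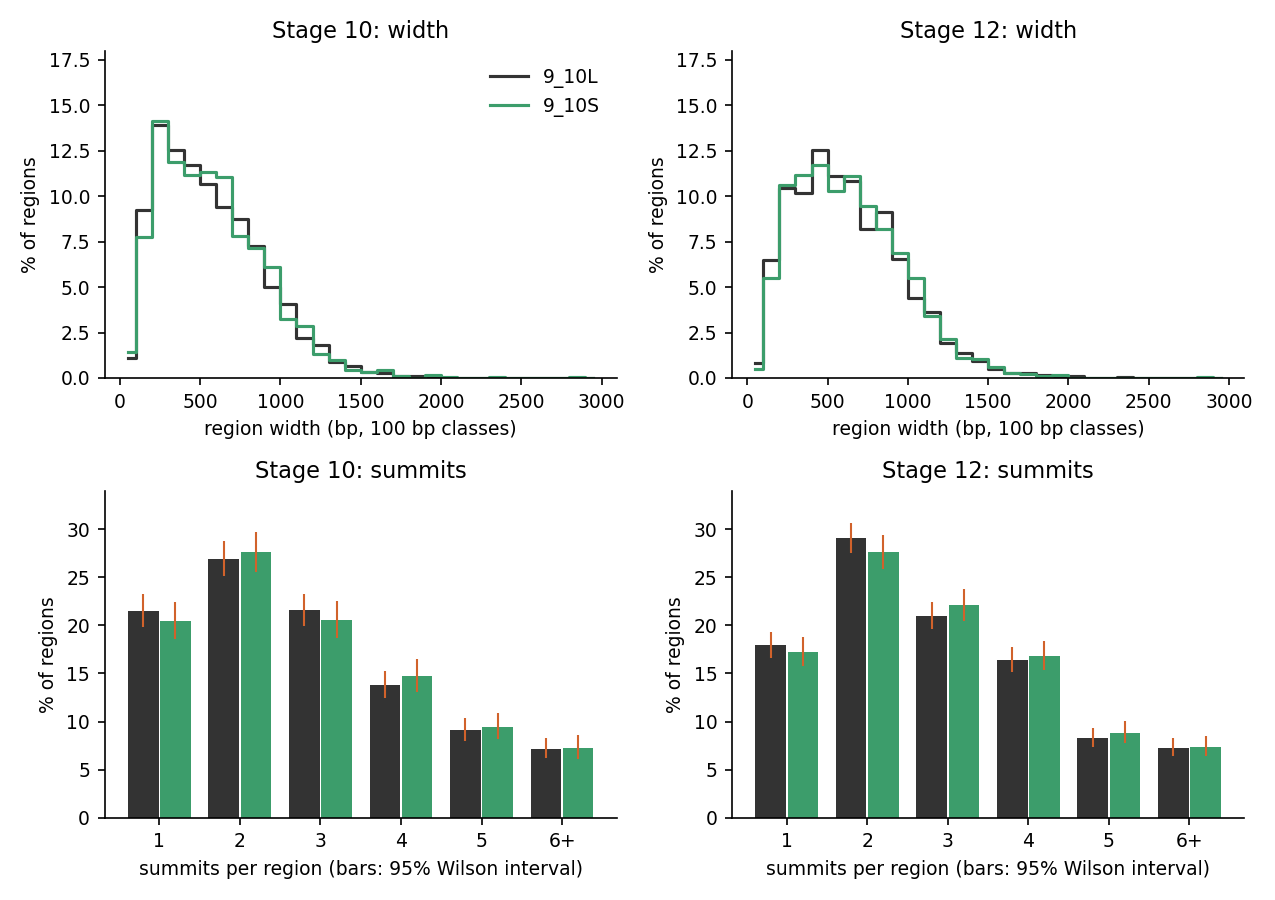
Widths of regions in 100 bp classes (upper panels) and number of summits per region (lower panels) as percent of the regions of 9_10L (dark) and 9_10S (green), at stage 10 (left) and stage 12 (right). Bars start at 0 and carry 95% Wilson intervals. The curves and bars of the homeologs lie close together at each stage.

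Regions with several summits were more frequent on the pair than on the pooled other chromosomes of the same kind. A summit is a local maximum of reads within a region, and the lists give 1 row for each. At stage 10, 1755 regions of 9_10L (78.5%, 76.7% to 80.1%) and 1373 of 9_10S (79.5%, 77.6% to 81.4%) had 2 or more, against 76.3% on all chromosomes. At stage 12, 2586 (82.0%, 80.7% to 83.3%) and 1947 (82.7%, 81.2% to 84.2%) did, against 79.3%. Chromosome 8S was above both at stage 12, at 83.2%. The share was above that of the other 8 chromosomes of the same kind by 2.96 points on 9_10L (1.12 to 4.71) and 2.98 on 9_10S (0.898 to 4.94) at stage 10, and by 3.85 (2.39 to 5.23) and 2.70 (1.02 to 4.27) at stage 12. Between the homeologs the share differed by -1.06 points at stage 10 (-3.60 to 1.51) and -0.702 at stage 12 (-2.72 to 1.34), L minus S. In the upper 50% by −log10 p the stage 12 difference was -2.08, with an interval that excludes 0 (-3.76 to -0.356).

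The excess of regions with several summits was smaller among regions of middle width, a class that leaves out both narrow and wide regions. Among regions 250 to 999 bp wide, the difference from the other chromosomes of the same kind was 0.962 points on 9_10L (-0.696 to 2.45) and 0.239 on 9_10S (-1.66 to 1.93) at stage 10. At stage 12 it was 1.97 on 9_10L (0.540 to 3.27) and 0.178 on 9_10S (-1.51 to 1.71). Of these 4 intervals, the one of 9_10L at stage 12 excludes 0. The mean number of summits was 2.88 on 9_10L and 2.94 on 9_10S at stage 10, and 2.95 and 3.00 at stage 12, against 2.88 and 2.93 on all chromosomes. Neighbouring summits within a region lay a median of 160 bp apart on 9_10L and 156 bp on 9_10S at stage 10, and 163 and 160 bp at stage 12.

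Clusters were defined as 5 or more regions of a list, each at most 10 kb from the next. At stage 10 there were 44 clusters with 298 regions on 9_10L (13.3% of its regions, 12.0% to 14.8%) and 36 with 256 regions on 9_10S (14.8%, 13.2% to 16.6%), against 16.7% on all chromosomes. At stage 12 there were 102 clusters with 663 regions on 9_10L (21.03%, 19.6% to 22.5%) and 63 with 438 regions on 9_10S (18.6%, 17.1% to 20.2%), against 22.4%. On 9_10L the share was below that of the other L chromosomes by 4.93 points at stage 10 and 3.29 at stage 12 (differences of -4.93, -6.37 to -3.37, and -3.29, -4.77 to -1.76). On 9_10S the difference from the other S chromosomes was -0.292 (-1.99 to 1.55) and -1.67 (-3.29 to 0.0486). The clustered share of 9_10L ranked 8th of the 9 L chromosomes at both stages, although its density ranked 3rd. These comparisons with the other chromosomes were made at this definition of a cluster only. Between the homeologs the share was 2.42 points higher on 9_10L at stage 12 (0.284 to 4.53), but it turned to -0.359 with gaps of at most 5 kb and to -0.411 in the upper 50% by −log10 p. At stage 10 the difference was -1.50 (-3.72 to 0.668), and its sign depended on the definition. It was -1.93 (-3.42 to -0.501) with gaps of at most 5 kb and 5.01 (2.24 to 7.75) with gaps of at most 20 kb. It was 1.75 with clusters of 3 or more regions, 0.470 in the upper 50% and 0.105 without the outermost 5 Mb, with intervals that include 0.

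Clusters of the stages overlapped in part. Of the 44 stage 10 clusters on 9_10L, 27 overlapped a stage 12 cluster, and of the 36 on 9_10S, 22 did. Stage 12 clusters that overlapped no stage 10 cluster numbered 75 on 9_10L and 41 on 9_10S. No such counts for the other chromosomes are given here, so whether the pair differs from them is not shown. Before its midpoint, 9_10S went from 128 clustered regions at stage 10 to 296 at stage 12, and after it from 128 to 142. On 9_10L these numbers went from 146 to 405 and from 152 to 258. A denser list has more clusters at a fixed gap, and the stage 12 list is denser.

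The order of the clusters by number of regions differed between the stages. On 9_10S the largest of stage 10 spanned chr9_10S:62224744-62298836 with 21 regions over 74.1 kb, of which 7 were single-stage, and stage 12 had 11 regions there. On 9_10L it spanned chr9_10L:68034764-68079211 with 17 regions, of which 5 were single-stage, and stage 12 had 11 there. Both lie in the 5 Mb bins with the lowest stage ratio of their chromosome. Being chosen for their stage 10 number, they themselves lower the ratio of those bins. At stage 12 the largest clusters had 13 regions, at chr9_10L:12158914-12198158 and chr9_10L:94048313-94077558 on 9_10L. On 9_10S they were at chr9_10S:862449-912875, chr9_10S:22606444-22629556 and chr9_10S:46680406-46717032. Each of these overlaps a stage 10 cluster: those on 9_10L overlap clusters of 5 and 9 regions, and those on 9_10S clusters of 5, 6 and 11. The largest stage 10 clusters overlap stage 12 clusters of 11 regions on 9_10L and 7 on 9_10S.

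Some single regions stood out by size or by strength, meaning their −log10 p. Folds, −log10 p and scores are the authors', and pileups are solved from them. The widest region of 9_10S was the same place at both stages, chr9_10S:27362405-27365296 at stage 10 (2892 bp, 13 summits) and 2878 bp with 14 summits at stage 12. It also had the most summits of the chromosome. On 9_10L the widest of stage 10 was chr9_10L:27189338-27191208, at 1871 bp with 8 summits, and the widest of stage 12 was chr9_10L:79369750-79372080, at 2331 bp with 11 summits. The stage 10 region of 9_10L with the most summits was chr9_10L:46346699-46348310, with 10.

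The region with the highest −log10 p on 9_10L had the same borders in both lists, chr9_10L:107852649-107853536. Its fold enrichment was 26.7 at stage 10 and 27.4 at stage 12, with pileups 794 and 413 times the floor. The local background there was 29.3 and 14.9 times the floor, against a median of 2.96 and 2.79 on the chromosome. Whether repeated sequence has a part in such pileups was not tested. On 9_10S the strongest was chr9_10S:38529390-38530370 at stage 10 (fold 29.97) and chr9_10S:101860004-101860674 at stage 12 (fold 36.3).

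The strongest single-stage regions were shorter. At stage 10 they were chr9_10L:114337706-114338021, 316 bp wide with a fold of 19.4 and 74.2 kb from the nearest stage 12 region, and chr9_10S:9405930-9406752, with a fold of 15.1 and 6.89 kb from one. At stage 12 they were chr9_10L:114204044-114204693, with a fold of 16.4, and chr9_10S:99349292-99349820, with a fold of 22.5. These lay 32.7 and 16.1 kb from the nearest stage 10 region. Both single-stage regions of 9_10L lie in its last 5 Mb.

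Strength differed little between the homeologs. Median fold was 8.45 on 9_10L and 8.61 on 9_10S at stage 10, and 10.2 and 10.4 at stage 12. The median pileup at the best summit was 64 reads on both at stage 10 and 142 on both at stage 12, which is 29.0 and 30.2 in units of the floor. The authors' score has a cap of 1000. At stage 10, 1170 regions of 9_10L reached it (52.3%, 50.3% to 54.4%) and 871 of 9_10S (50.5%, 48.1% to 52.8%), against 53.8% on all chromosomes. The share on 9_10S was the lowest of the 18. At stage 12 the shares were 74.7% and 75.4%, against 74.3%.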

How the data were processed

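Per the labels, the 6 libraries were grouped by stage. Per the submitters' processing notes, reads were demultiplexed with bcl2fastq 2.20 and the build was xenLae2. The aligner, peak caller, read filters and pooling are not given in the sources used here. The deposited lists, without header, follow the narrowPeak order: 0-based start and end, score, fold enrichment (a ratio to local background), −log10 p, −log10 q (not used) and summit offset. Their meaning was inferred from that order and the values.

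A row is a summit, so rows of equal interval were collapsed to 1 region. Region fold and −log10 p are those of the summit with the highest −log10 p. Pileup and background were solved from both as a whole-number pileup with a Poisson upper tail (misfit within 0.01). This held for 99.95% and 99.93% of summits. The floor is the most common background of a list. It sat under 5877 summits at stage 10 and 9915 at stage 12.

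Spans ran from the first base to the end of the last region in either list. Regions were placed by their centre. Assembly gaps and unmappable sequence were not removed. Density ratios carry exact conditional binomial intervals. Shares carry Wilson and differences of shares Newcombe intervals. The ratio between the parts before and after the midpoint and its L to S comparison carry log-normal intervals. All are at 95%. No test was run, because a stage is 1 list and regions are not replicates. Overlap needed 1 bp. Functions were tested on simulated data. Python 3.11.15, numpy 2.4.6, pandas 2.3.3 and scipy 1.17.1 were used. The gene table at hand is of assembly version 10.1, whose last gene on 9_10L ends at 138 Mb, beyond the 118 Mb span, so no gene was assigned.

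Named regions are, per chromosome and stage, the densest and sparsest full bin, the cluster with most regions, and the widest, strongest, most-summit and strongest single-stage region. Other bins were named after their values were seen. Members and measures were chosen with earlier results of these data known.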

Additional observations from a re-analysis of the deposited data

How the results depend on the processing

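No paired analysis was possible because the 3 libraries of a stage share 1 list. Leaving out replicates was not run either. Differences from the other chromosomes of the same kind had no alternative run, apart from the multi-summit share limited by width. Alternatives for the parts before and after the midpoint, and equal numbers for the stage ratio, were chosen after seeing the data. The L to S density ratio stayed within its interval under every alternative run, and so did the L to S width ratio, which passed 1 at stage 10 in the upper 50% (1.02). The multi-summit and single-stage differences stayed within theirs, but at stage 12 the interval came to exclude 0 for the first in the upper 50% (-2.08) and for the second with equal numbers (3.97), 50% of both regions (3.16) and nothing within 1 kb (2.94). The midpoint contrast of 9_10S with 9_10L lost its call in the upper 50% (1.03) and with equal numbers (1.11). The ends to middle ratio of 9_10S was 1.64 and 1.54 (stages 10 and 12) with ends of 10 Mb, and 1.61 and 1.52 with ends of 10% of the span. On 9_10L at stage 12 it was 1.44 with ends of 10 Mb. The stage 12 to stage 10 ratio of 9_10L and 9_10S came to 1.50 and 1.48 among the upper 50%, 1.57 and 1.51 in covered bases, and 1.05 and 1.00 with equal numbers. The clustered share of L minus S was 5.01 points at stage 10 and 7.72 at stage 12 with gaps up to 20 kb. At stage 10 it was 1.75 with clusters of 3 or more, 0.470 in the upper 50% and 0.105 without the ends, against -1.50. At stage 12 it reversed, to -0.411 in the upper 50% and -0.359 with gaps up to 5 kb. The cause was not tested. Across all alternatives, 84 values stayed within their limits and 58 moved, 44 of the latter being shares and counts outside the main measures. The 2 others are these reversals, counted only where the interval of the reported value excluded 0. Some values could not change. Equal numbers meant 40211 regions, all those of stage 10 on the 18 chromosomes, so stage 10 counts and densities stayed the same under that setting. Among the main measures a difference or ratio passed to the other side of no difference in 7 cases, 4 of them the stage 10 clustered share. Single-stage shares depend on the overlap rule: at stage 10 on 9_10L the share was 35.9% with 50% of both regions required and 17.3% when nothing within 1 kb was allowed. They depend on list length too. With equal numbers, the share on 9_10L was 29.4% at stage 10 and 35.7% at stage 12, and on 9_10S 28.6% and 31.7%. Depth per library is unknown, and the higher read background of the stage 12 list limits what stage differences can show.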
